A study of Mus musculus with 24 samples.

Results

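miR-297, miR-466, miR-467 and miR-669 are microRNAs whose hairpins are crowded into an intron of the mouse gene Sfmbt2, and 80 of the 1978 mature miRNA rows in the count table carry one of these 4 numbers, with any letter, copy number or arm. The rows were taken by name alone. They were followed in 24 small RNA libraries, 4 in each of 6 groups. Spermatocytes in pachynema or diplonema and round spermatids were enriched from mice of the Ago413+/+, Ago413+/- and Ago413-/- genotypes. The Ago413 deletion takes out all of Ago1 and part of Ago3 and Ago4, genes that lie side by side and encode Argonaute proteins, and Ago2 was left in every group. The deletion is constitutive, so somatic cells of the testis and all earlier germ cell stages carried it too. All mice were C57BL/6J, aged 10 to 15 weeks, and the line was derived from embryonic stem cells of a 129 background with Sox2-cre. Cells were sedimented through a gradient of bovine serum albumin, testes of 2 to 5 mice were combined, and only fractions above 70% purity were kept. The labels number the replicates of a group and do not tie each to a separate pool of mice, so the p-values measure the spread between these libraries, which may be partly technical. Only miRNA counts were used here, so the loss of the Argonaute transcripts could not be checked.

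A miRNA is cut from a hairpin precursor, and either the 5p or the 3p arm is loaded into an Argonaute protein, which it guides to messenger RNAs through its seed, the bases near its 5' end. Argonaute binding also protects the mature miRNA from degradation. The Sfmbt2 cluster is specific to rodents, arose by tandem duplication, and is best known from the placenta and embryonic stem cells. Sfmbt2 itself encodes a Polycomb group protein and is imprinted in extraembryonic tissue.

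By RefSeq annotation of GRCm38.p6, 82 hairpin genes carried the 4 numbers, and 72 of them lay inside Sfmbt2 (chromosome 2, 10370440 to 10595253). The 72 spanned 51.6 kb, from 10466663 to 10518279. None overlapped an annotated Sfmbt2 exon. They lay in the intron between an exon that ended at 10461472 and the next, which started at 10523945. No miRNA gene of another number lay inside Sfmbt2. Of the 80 rows, 66 had all their hairpins there, 5 had hairpins both inside and outside, and 9 had none inside.

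The mature sequences of 8 members were in the RefSeq miRNA table used here, all from hairpins outside chromosome 2. miR-466i-3p is shown because it was the only one of the 8 with enough counts to test, and the other 4 because they show the repeats that recur under these numbers. Capitals mark the seed, bases 2 to 8, and each sequence runs 5' to 3' on GRCm38.p6.
miR-466i-3p, chr13:17747552-17747573, plus strand: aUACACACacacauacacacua
miR-466q, chr3:28419988-28420007, plus strand: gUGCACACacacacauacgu
miR-466k, chr3:85467396-85467418, plus strand: uGUGUGUGuacauguacauguga
miR-467f, chr11:69635419-69635439, minus strand: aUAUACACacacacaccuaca
miR-669n, chr3:115979905-115979924, plus strand: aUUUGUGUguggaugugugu
miR-466i-3p had 424 counts over the 24 libraries, and the other 4 had 1 to 11. The sequences were rich in CA or UG repeats. The longest unbroken run of that repeat was 11 bases in miR-466i-3p, 12 in both miR-466q and miR-467f, 9 in miR-466k and 8 in miR-669n. All 8 seeds were distinct.

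The members were a small share of the miRNA counts, and most of that share came from few rows. Depth ran from 182904 to 1072637 counts per library. A row was tested when 3 or more libraries each held 10 or more of its counts. This kept 450 of the 1978 rows and 35 of the 80 members. Of the other 45 members, 6 had no count in any library and none exceeded 14 counts in any one; together they held 2.10% of the members' counts. miR-467 held the most, 41.2% of the members' counts over 13 rows with 7 tested. miR-669 held 34.5% over 30 rows with 10 tested, miR-466 held 19.5% over 31 rows with 14 tested, and miR-297 held 4.86% over 6 rows with 4 tested.

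The members together made up 0.550 ± 0.077% of the counts in Ago413+/+ spermatocytes (SD, n = 4), 0.633 ± 0.073% in Ago413+/- and 0.450 ± 0.065% in Ago413-/- spermatocytes. In round spermatids the shares were 0.490 ± 0.053% in Ago413+/+, 0.532 ± 0.051% in Ago413+/- and 0.349 ± 0.072% in Ago413-/- libraries. On library totals without scaling, the 4 Ago413-/- round spermatid libraries all lay below the 4 Ago413+/+ ones. That difference of -0.141 percentage points reached p = 0.0286 in an exact two-sided permutation test, the smallest p that 4 against 4 allows, and 0.2 after adjustment over 7 contrasts. No contrast of this share passed the adjusted threshold.
By number, miR-466 took 0.085 to 0.123% of the counts in Ago413+/+ round spermatids and 0.0418 to 0.0668% in Ago413-/- ones. The same comparison for miR-467 gave 0.146 to 0.231% and 0.154 to 0.193%. For miR-297 the shares were 0.0158 to 0.0293% and 0.00874 to 0.0213%, and for miR-669 0.156 to 0.193% and 0.0597 to 0.165%. On these library totals without scaling, the ranges did not overlap for miR-466 and did for the other numbers.

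**Figure D1:**
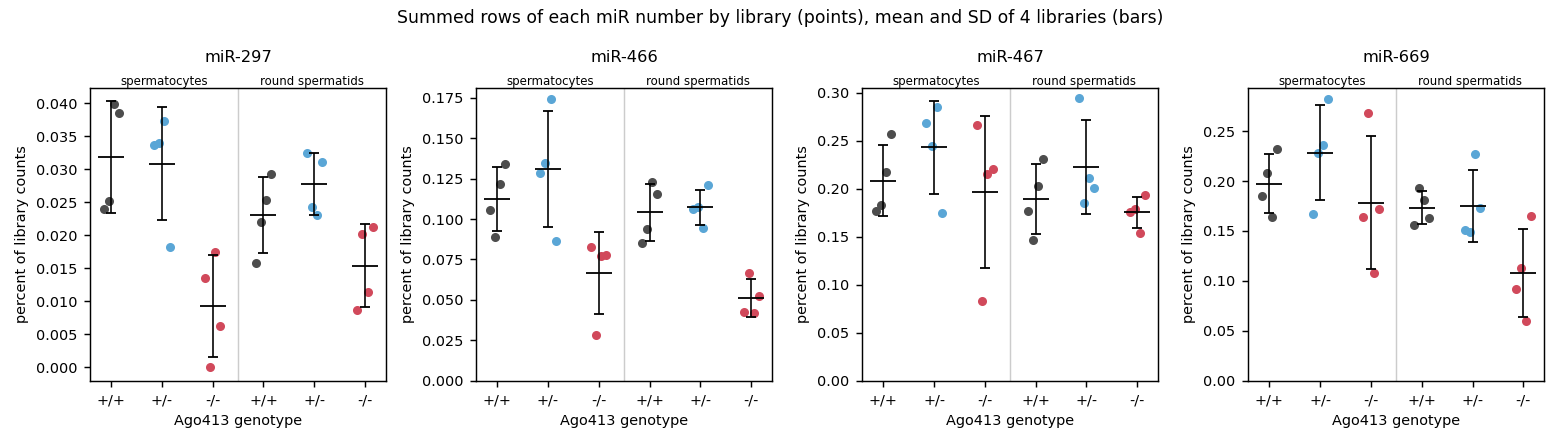
Percent of each library's miRNA counts (y axis, from 0) taken by the summed rows of miR-297, miR-466, miR-467 and miR-669 in the 3 Ago413 genotypes (x axis) of spermatocytes and round spermatids. Points are libraries, and bars give the mean and SD of 4. The Ago413-/- points for miR-297 and miR-466 lie below all Ago413+/+ points in spermatocytes, while those for miR-467 overlap them in both cell types.

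Many rows were not independent measurements: their counts were identical or stood in a fixed ratio from library to library. A read that matches several hairpins can be divided among more than one name. miR-297b-3p and miR-297c-3p had identical counts in all 24 libraries (623 in total each). So did miR-466d-5p and miR-466n-5p (14 each) and miR-669d-3p and miR-669d-2-3p (15 each), pairs too low to test. A further set of rows stood in a constant ratio, every library lying within 1 rounding step of it. miR-467a-5p stood to miR-467b-5p as 9.98 to 1, and miR-467a-3p to miR-467d-3p as 9.99 to 1. In each pair the first name has 10 annotated hairpin genes and the second has 1. miR-669a-3p stood to miR-669o-3p as 11.04 to 1, where the names have 11 hairpins and 1. miR-466c-3p stood to miR-466e-3p as 3.00 to 1, and miR-466e-3p and miR-466p-3p differed in total by a single count (280 and 279). The names of miR-466c-3p and miR-466e-3p have 3 hairpins and 1. miR-297a-3p was the exception: it stood at 2.00 to miR-297b-3p, and its name has 4 hairpins. Looser ratios tied miR-669a-5p to miR-669p-5p (6.02, with 12 and 2 hairpins) and miR-466b-3p to miR-466p-3p (7.80, with 8 and 1). With rows in constant ratio taken once, and those in looser ratio kept apart, the 35 tested members came down to 28.

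**Figure D2:**
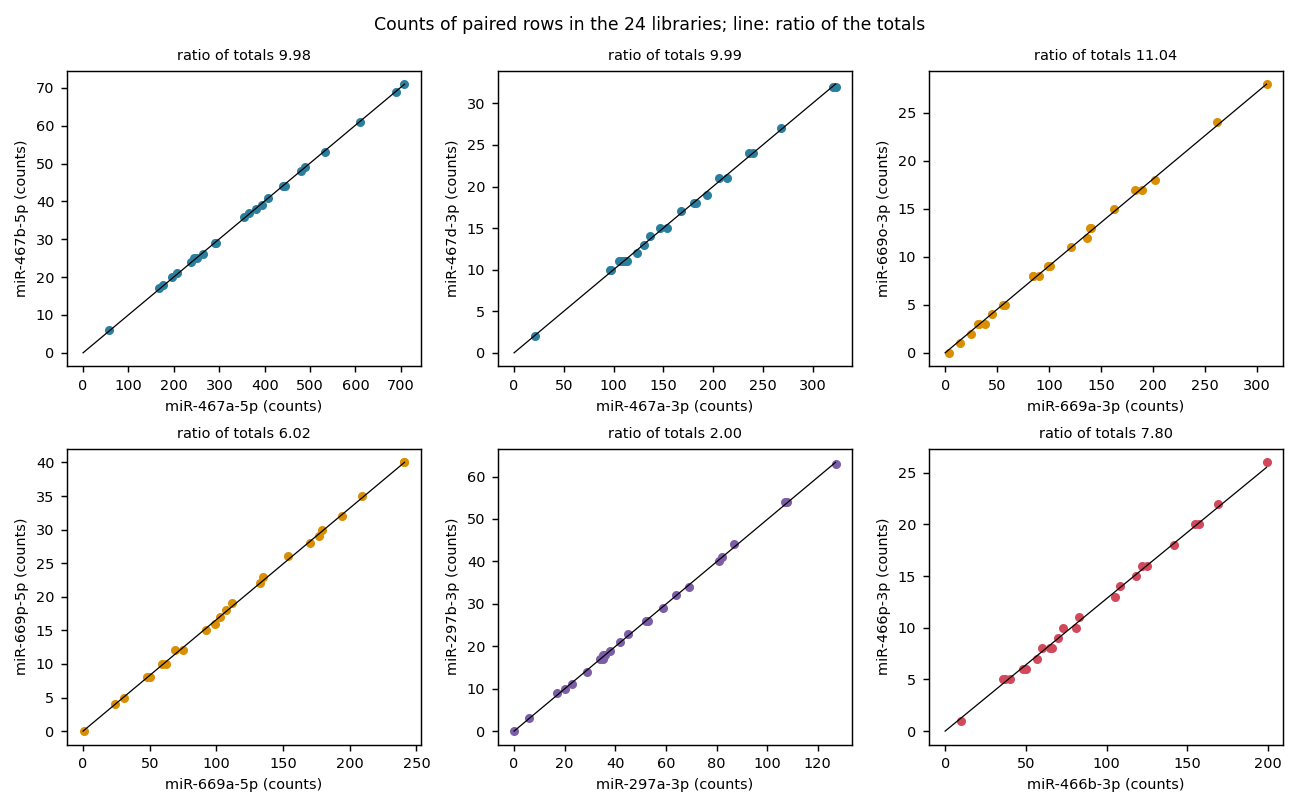
Raw counts of 6 pairs of members in the 24 libraries, one member on each axis and one point per library. The line is the ratio of the totals, from 2.00 for miR-297a-3p and miR-297b-3p to 11.04 for miR-669a-3p and miR-669o-3p, and the points follow it in every panel.

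Levels are given as normalized CPM, each count relative to its library's total after scaling by the trimmed mean of M values. miR-669c-5p was the most abundant member, with a mean of 996 normalized CPM over the 24 libraries, rank 95 of the 450 miRNAs tested. Its values were 899.8, 1284, 539.9 and 1155 in Ago413+/+, 474, 721, 1044 and 2668 in Ago413+/- and 978, 3029.5, 689 and 1298 in Ago413-/- spermatocytes. They were 761, 1189.6, 1022 and 527 in Ago413+/+, 504, 515, 1323 and 702 in Ago413+/- and 588, 657, 344 and 1002 in Ago413-/- round spermatids. The genotypes overlapped in both cell types, and single libraries stood high: Ago413-/- spermatocyte replicate 2 and Ago413+/- spermatocyte replicate 4.

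Ago413-/- spermatocyte replicate 2 stood apart in other ways. It was the shallowest library (182904 counts), and it had no count at all for miR-297, miR-466g or miR-669p-5p. A count of 0 there allows up to 3 counts, or 19.97 normalized CPM, counting error only. Counts of spermatocyte calls are given below without it as well.

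Loss of Ago1, Ago3 and Ago4 was compared with Ago413+/+ in spermatocytes first. There 7 of the 35 tested members fell and none rose. They were miR-466g, the 3p rows of miR-297 (miR-297a-3p, miR-297b-3p and miR-297c-3p) and 3 miR-669 rows (miR-669a-5p, miR-669a-3p and miR-669p-5p). No miR-467 row passed. A change was called at an adjusted p under 0.05 in edgeR's quasi-likelihood test, Benjamini-Hochberg over all 450 miRNAs, with a log2 fold change of at least 1 in size. Over all 450, 8.89% were called lower and 6% higher, against 20% and 0 for the members. No member was higher at an unadjusted p under 0.05, and DESeq2 called 0 higher and 7 lower. In bulk RNA, fewer cells of a type and less RNA per cell cannot be told apart.

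miR-466g fell most. Its hairpin is a single gene in the cluster (chromosome 2, 10514595 to 10514674). Its normalized CPM was 66.4, 56.1, 111 and 133 in Ago413+/+, 85.9, 86.5, 139 and 83.8 in Ago413+/- and 15.6, 0, 44.4 and 9.62 in Ago413-/- spermatocytes. All 4 Ago413-/- libraries lay below all 8 others. These rest on few reads, 6, 0, 12 and 2 counts in the Ago413-/- libraries against 40 to 95 in Ago413+/+. Depth differed too, with totals of 182904 to 369491 counts in Ago413-/- and 311610 to 721314 in Ago413+/+ spermatocytes. The log2 fold change was -2.24 ± 0.53 (SE), a 4.73-fold lower level, with edgeR adjusted p = 0.00631. Without Ago413-/- replicate 2 it was -1.99 (edgeR adjusted p = 0.0113), and it kept the call with any single library left out.

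The 3 called miR-297 rows are 3p rows in fixed ratio to each other. miR-297a-3p measured 97.9, 112, 148 and 168 in Ago413+/+, 124, 97.9, 150.4 and 90.1 in Ago413+/- and 59.8, 0, 74.1 and 28.8 in Ago413-/- spermatocytes. The 2 ranges, 97.9 to 168 in Ago413+/+ and 0 to 74.1 in Ago413-/-, did not overlap. The log2 fold change was -1.57 ± 0.46 (edgeR adjusted p = 0.0262). miR-297b-3p and miR-297c-3p, one set of counts, measured 48.1, 56.1, 73.6 and 82.5 in Ago413+/+ and 28.6, 0, 37.03 and 14.4 in Ago413-/- spermatocytes, a log2 fold change of -1.54 ± 0.46 (edgeR adjusted p = 0.0273). The fourth tested row, miR-297b-5p from the opposite arm, had a log2 fold change of -1.44 ± 0.62 and did not pass (edgeR adjusted p = 0.115), although its groups did not overlap either.

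Among miR-669 rows, miR-669a-5p measured 221, 245, 282 and 339.5 in Ago413+/+, 273, 275, 362 and 214 in Ago413+/- and 153, 6.66, 115 and 115 in Ago413-/- spermatocytes. Every Ago413-/- library was below every other library, and replicate 2 was far below the rest. The log2 fold change was -1.42 ± 0.40 (edgeR adjusted p = 0.0214). miR-669p-5p, in near-constant ratio to it, measured 36.5, 41.1, 46.7 and 57.1 in Ago413+/+ and 26.01, 0, 18.5 and 19.2 in Ago413-/- libraries, and fell by 1.34 ± 0.41 on the log2 scale (edgeR adjusted p = 0.0283). miR-669a-3p, from the other arm of largely the same hairpins, measured 232, 190.3, 189 and 267 in Ago413+/+, 293, 438, 284 and 99.4 in Ago413+/- and 98.8, 26.6, 51.8 and 159 in Ago413-/- spermatocytes. Ago413+/- replicate 4 was the single library outside the Ago413-/- group that reached its range. The log2 fold change against Ago413+/+ was -1.36 ± 0.43 (edgeR adjusted p = 0.0325). miR-669o-3p, which follows miR-669a-3p in constant ratio, had a log2 fold change of -1.53 and missed the threshold (edgeR adjusted p = 0.0624).

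The other members of these numbers moved less. All 14 tested miR-466 rows had log2 fold changes below 0, with a median of -0.45, and miR-466g alone passed. For miR-467, 5 of 7 rows lay above 0, with a median of 0.19 and a range of -0.35 to 0.39; at an unadjusted p under 0.05 edgeR gave 0 of them, and DESeq2 called 0. miR-467a-5p measured 589, 608, 572 and 777 in Ago413+/+, 705, 559, 682 and 612 in Ago413+/- and 952, 386, 655 and 808 in Ago413-/- spermatocytes. The genotypes overlapped widely, and the log2 difference had a 95% interval of -0.40 to 0.69. miR-466b-3p measured 179, 171, 198 and 232 in Ago413+/+, 240.0, 223, 247 and 177 in Ago413+/- and 156, 66.6, 137 and 173 in Ago413-/- spermatocytes. miR-466d-3p measured 206, 174, 149.6 and 228 in Ago413+/+, 184, 180.2, 230.3 and 171 in Ago413+/- and 159, 13.3, 115 and 202 in Ago413-/- spermatocytes. Of the 4 Ago413-/- values, 3 of miR-466b-3p and 2 of miR-466d-3p lay below every Ago413+/+ one, replicate 2 the lowest in both, and the rest were within the Ago413+/+ range, with log2 fold changes of -0.53 ± 0.29 and -0.59 ± 0.37. Of the 10 miR-669 rows, miR-669c-5p and miR-669l-5p alone lay above 0, at 0.62 ± 0.49 (edgeR adjusted p = 0.428) and 0.39 ± 0.33 (edgeR adjusted p = 0.464). Over the 35 members the median log2 fold change was -0.43, beside -0.04 for all 450 miRNAs, and 28 of 35 lay below 0 (52% of all). The groups did not overlap, with Ago413-/- lower, for 9 members (25.7%), beside 12.2% of all 450.

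The spermatocyte count moved with the libraries fitted. It was 1, miR-466g (3.03% of the members), when spermatocyte libraries were fitted alone, with 3.22% of all miRNAs called lower. It was 0 when only the Ago413+/+ and Ago413-/- libraries were fitted, with 2.36% of all called lower. miR-466g then had a log2 fold change of -2.24 (edgeR adjusted p = 0.0774) and miR-297a-3p one of -1.57 (edgeR adjusted p = 0.115). The fit of all libraries gave -2.24 and -1.57. These fits also tested fewer rows. The count was 3 without Ago413+/+ replicate 3 (8.57% of the members, beside 7.42% of all called lower). It was 2 without Ago413+/+ replicate 4 (5.71% beside 6.01%) and 5 without Ago413-/- replicate 2 (14.3% beside 5.78%). In the last of these the 3 miR-297 rows, miR-466g and miR-669a-5p were called and the median over members was -0.27. The meiotic germ cell markers (miR-449a-5p, miR-34c-5p and miR-34b-5p) summed to 58023 to 111990 normalized CPM in Ago413+/+ and 18730 to 78790 in Ago413-/- spermatocytes, with none of the 3 at 0. Somatic markers, named below, overlapped: Sertoli 3430 to 8830 and 2755 to 9268, endothelial 398 to 1805 and 260 to 2604. Peritubular sums were 1063 to 2703 and 1278 to 2429, and blood sums 21.9 to 2400 and 459 to 2862. The part of these markers in the result was not tested.

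**Figure D3:**
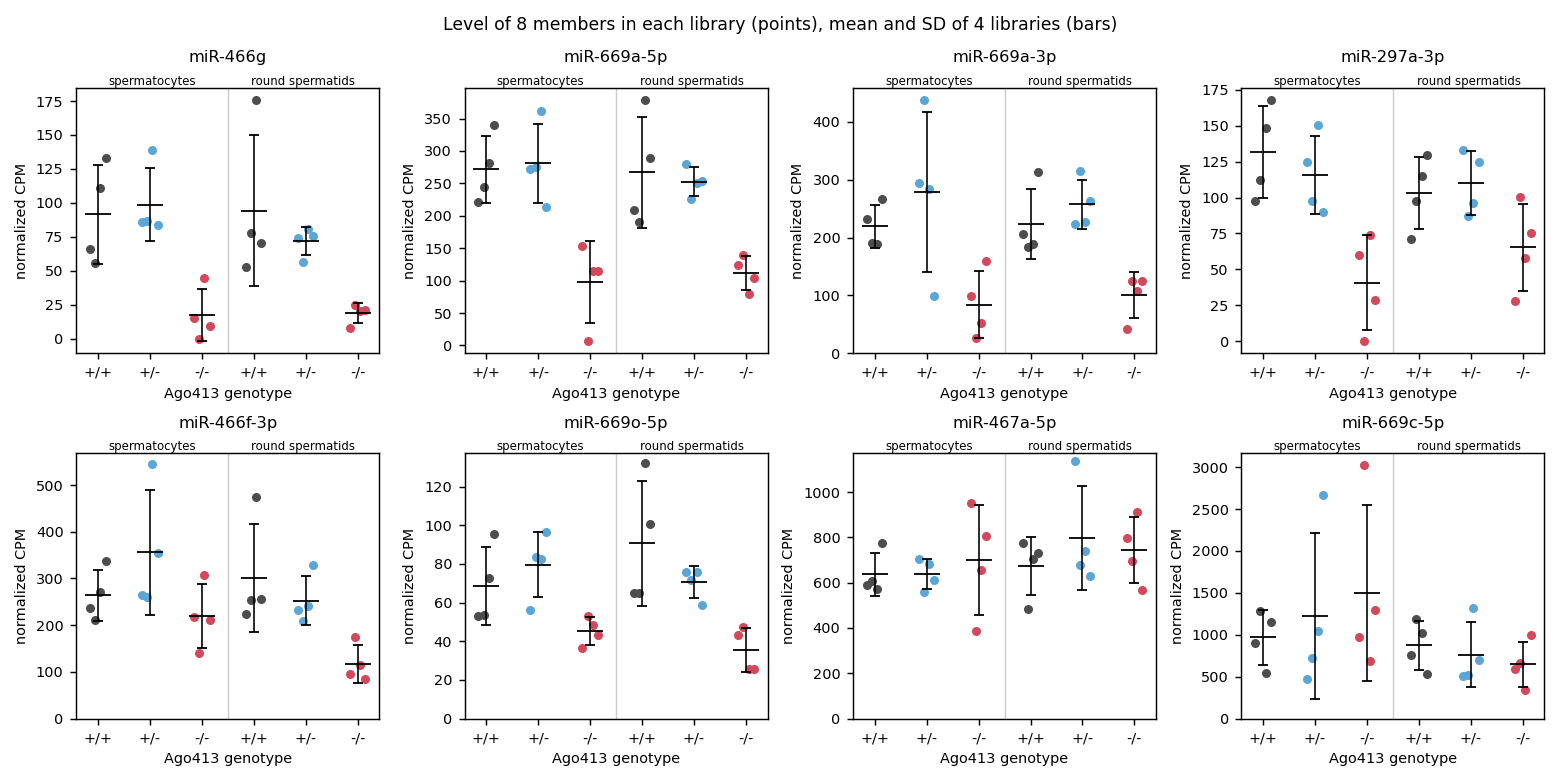
Normalized CPM (y axis, linear) of 8 members in each library, by Ago413 genotype (x axis) and cell type. Points are libraries and bars the mean and SD of 4. miR-466g and miR-669a-5p in Ago413-/- libraries lie below all Ago413+/+ libraries in both cell types, miR-467a-5p overlaps throughout, and miR-669c-5p is high in single spermatocyte libraries.

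In round spermatids, 6 of the 35 tested members fell and none rose. They were miR-466g, miR-466f-3p and miR-466i-3p, and miR-669a-5p, miR-669p-5p and miR-669o-5p. No miR-297 or miR-467 row passed. Over all 450 miRNAs 9.11% were called lower and 1.11% higher, against 17.1% and 0 of the members. At an unadjusted p under 0.05 no member was higher and 14 were lower, and DESeq2 called 7 lower and 0 higher.

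miR-466g was again lowest. It measured 52.9, 77.6, 176 and 70.7 in Ago413+/+, 74.2, 56.8, 80.9 and 75.95 in Ago413+/- and 8.31, 25.05, 20.6 and 21.5 in Ago413-/- round spermatids. The Ago413-/- libraries did not reach the lowest of the others, and Ago413+/+ replicate 3 stood high. The log2 fold change was -2.30 ± 0.49, 4.92-fold lower (edgeR adjusted p = 0.00292), and without that replicate it was -1.85 (edgeR adjusted p = 0.0221).

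miR-466f-3p, made from 4 hairpin genes of which 3 lie in Sfmbt2, measured 224, 253, 474 and 257 in Ago413+/+, 232, 209, 240.3 and 329.6 in Ago413+/- and 96.4, 175, 115 and 83.999 in Ago413-/- round spermatids. All Ago413-/- values were below all others, and the fall was 2.56-fold (log2 -1.36 ± 0.33, edgeR adjusted p = 0.00907). In spermatocytes the same miRNA measured 237, 211, 271 and 336 in Ago413+/+, 264, 259.6, 545 and 354 in Ago413+/- and 218, 139.8, 307 and 212 in Ago413-/- libraries. These overlapped, with a log2 fold change of -0.25 ± 0.32. The difference between the cell types, -1.10 on the log2 scale, did not pass its own test (edgeR interaction, adjusted p = 0.381).

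miR-669o-5p, from a single hairpin gene next to that of miR-466g, measured 65.1, 64.8, 132 and 101 in Ago413+/+, 75.8, 71.8, 75.9 and 58.8 in Ago413+/- and 43.2, 47.3, 25.8 and 25.8 in Ago413-/- round spermatids. The Ago413-/- values lay below the rest, and the log2 fold change was -1.34 ± 0.32 (edgeR adjusted p = 0.00739). In spermatocytes it measured 53.1, 53.4, 72.5 and 95.2 in Ago413+/+ and 36.4, 53.3, 48.1 and 43.3 in Ago413-/- libraries, the highest Ago413-/- value just above the lowest Ago413+/+ one, with a log2 fold change of -0.60 ± 0.33. miR-669a-5p measured 209.6, 191, 379 and 289 in Ago413+/+, 280.1, 226, 250.4 and 254 in Ago413+/- and 125, 139, 79.99 and 103 in Ago413-/- round spermatids, with no overlap and a log2 fold change of -1.25 ± 0.39 (edgeR adjusted p = 0.0391). miR-669p-5p measured 34.6, 31.95, 64.3 and 47.9 in Ago413+/+ and 19.9, 22.3, 12.9 and 17.2 in Ago413-/- libraries, a fall of 1.29 ± 0.38 on the log2 scale (edgeR adjusted p = 0.0303). miR-669a-3p measured 206, 184, 189 and 313 in Ago413+/+, 224, 316, 228 and 262 in Ago413+/- and 41.6, 125, 108 and 125 in Ago413-/- round spermatids, which did not overlap either, and missed the threshold at -1.17 ± 0.42 (edgeR adjusted p = 0.0678).

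miR-466i-3p was the one tested member with no hairpin in Sfmbt2, its gene lying on chromosome 13 (17747473 to 17747593), and its sequence is printed above. It measured 36.6, 27.4, 60.9 and 51.5 in Ago413+/+, 31.3, 28.4, 32.9 and 35.8 in Ago413+/- and 14.96, 33.4, 19.4 and 15.1 in Ago413-/- round spermatids. Ago413-/- replicate 2 was within the Ago413+/+ range, and the log2 fold change was -1.09 ± 0.36 (edgeR adjusted p = 0.0492). The call was lost in 13 of 20 alternatives, 7 of them fits that left out 1 of 8 libraries in turn, and its log2 fold change ran from -1.37 to -0.66 over the 20. A pair of 3p rows, tied to each other by a looser ratio of 2.59, passed on adjusted p with a smaller change. miR-466c-3p had a log2 fold change of -0.95 ± 0.30 (edgeR adjusted p = 0.0400) and miR-466b-3p one of -0.87 ± 0.28 (edgeR adjusted p = 0.0473). miR-466b-3p measured 132, 142, 237 and 239 in Ago413+/+, 194, 204, 167 and 203 in Ago413+/- and 83.1, 134, 107 and 86.2 in Ago413-/- round spermatids. Its 4 Ago413-/- values lay low, the highest just above the lowest Ago413+/+ value.

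The remaining abundant members included miR-466d-3p, which measured 140.4, 195, 169 and 203 in Ago413+/+, 168, 200.5, 177 and 182 in Ago413+/- and 91.4, 128, 82.6 and 101 in Ago413-/- round spermatids. It did not overlap, at a log2 fold change of -0.82 ± 0.37 that did not pass (edgeR adjusted p = 0.138). miR-297a-3p measured 71.2, 97.7, 115 and 129 in Ago413+/+, 133, 86.9, 96.1 and 125 in Ago413+/- and 28.3, 100.2, 58.1 and 75.4 in Ago413-/- round spermatids. Its groups overlapped through Ago413-/- replicate 2 and replicate 4, and the log2 fold change of -0.68 ± 0.43 did not pass (edgeR adjusted p = 0.303). Across the members the median log2 fold change was -0.68, beside -0.003 for all 450, and 29 of 35 lay below 0 (50% of all). Groups that did not overlap, with Ago413-/- lower, numbered 12 (34.3%), beside 15.1% of all 450.

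The round spermatid count also moved with single libraries. It was 3, 3 and 2 without Ago413+/+ replicates 2, 3 and 4 (8.57%, 8.57% and 5.71% of the members). Of all miRNAs, 6.07%, 6% and 4.02% were then called lower. The count was 3, 1 and 3 without Ago413-/- replicates 1, 3 and 4 (8.57%, 2.86% and 8.57% of the members). Of all miRNAs, 6%, 3.35% and 6.68% were then called lower. miR-466g was called in each of these fits. With constant-ratio rows taken once, 3 were called (miR-466f-3p, miR-466g and miR-669o-5p). That was 10.7% of the members tested, beside 7.00% of all miRNAs called lower. Some markers chosen for somatic cells lay higher in Ago413-/- round spermatids. The pair used for Sertoli cells (miR-202-5p and miR-202-3p) summed to 9023 to 15961 normalized CPM there and 2497 to 8167 in Ago413+/+, without overlap. The endothelial pair (miR-126a-3p and miR-126a-5p) summed to 1949 to 5852 and 511 to 1988, which overlapped slightly. Peritubular markers (miR-143-3p and miR-145a-5p) summed to 2029 to 3440 and 1059 to 8545, and blood markers (miR-451a and miR-486a-5p) to 103 to 4799 and 49.1 to 494. Meiotic germ cell markers summed to 70316 to 133692 in Ago413-/- and 59185 to 108282 in Ago413+/+ round spermatids, which overlapped. No marker was at 0 in either genotype. Their part in the fall of the members was not tested.

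**Figure D4:**
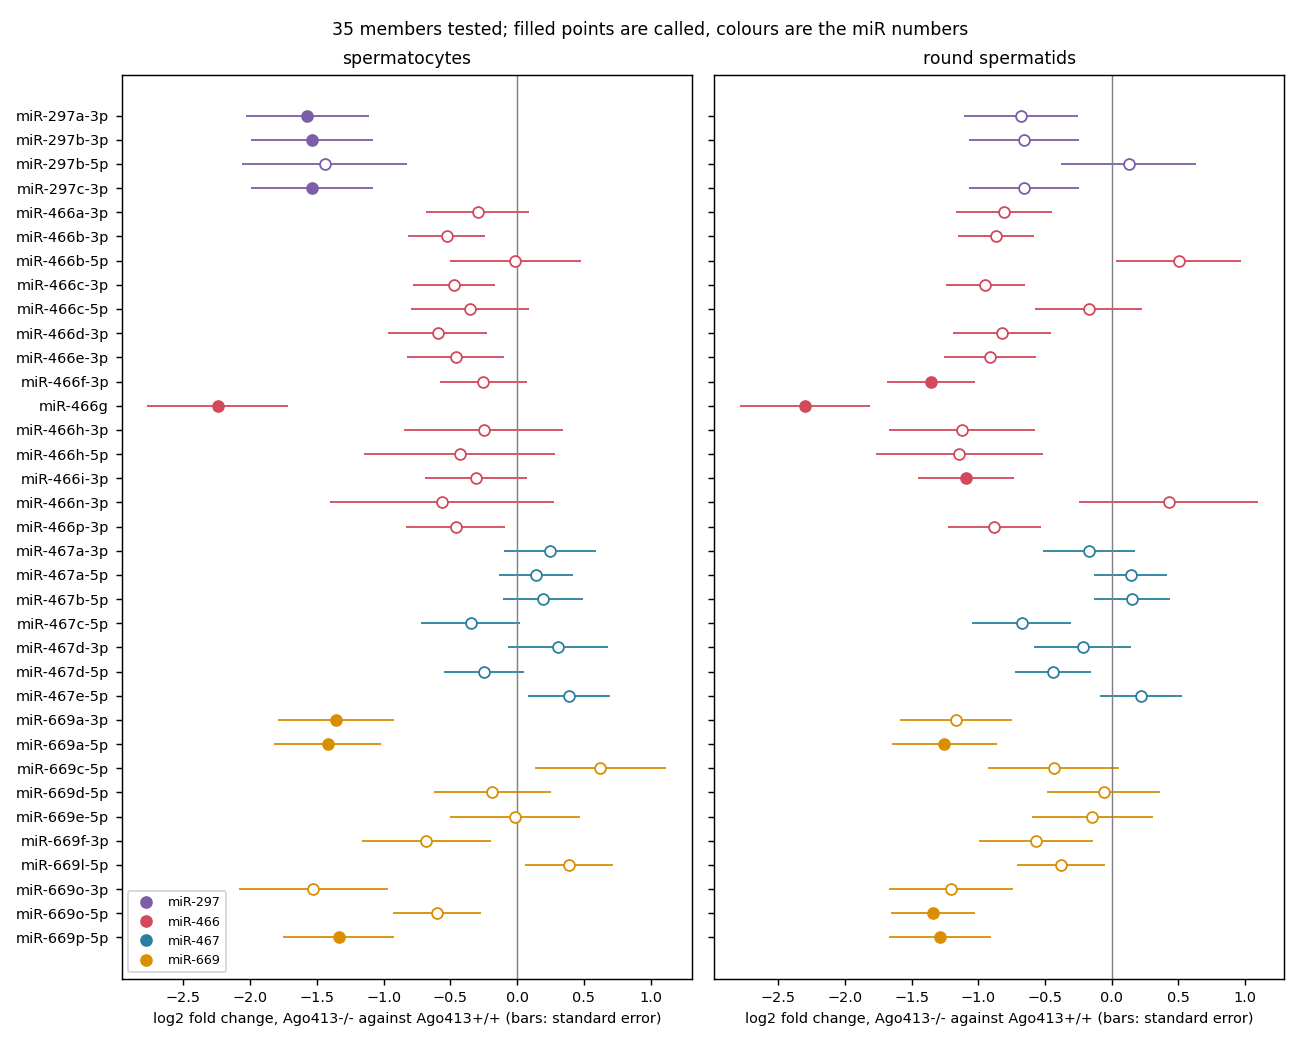
Log2 fold change of each of the 35 tested members, Ago413-/- against Ago413+/+ (x axis, bars the standard error), in spermatocytes and round spermatids. Filled points were called, 7 and 6 of them, and colours mark the 4 numbers. miR-466g lies farthest to the left in both panels, and the miR-467 rows lie around 0.

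Set side by side, 25 members were lower in Ago413-/- in both cell types, 3 were higher in both and 7 had opposite signs. Rows in constant ratio each count here. The same count was not made over all 450, of which 52% lay below 0 in spermatocytes and 50% in round spermatids. miR-466g, miR-669a-5p and miR-669p-5p were called in both cell types, the miR-669 rows in near-constant ratio to each other. In round spermatids, leaving out 1 library ended the call of miR-669a-5p in 6 of 8 fits and that of miR-669p-5p in 6 of 8, and miR-669a-5p also lost it with the replicate number as a block (edgeR adjusted p = 0.0594). Called in spermatocytes alone were 4 rows, and in round spermatids alone 3. That split was not shown to be a difference between the cell types. The edgeR test of the interaction called 0 of the 35 members and 0% of all 450, with 1 member at an unadjusted p under 0.05 (miR-466f-3p) and 0 called by DESeq2. For miR-466g the interaction was -0.06 ± 0.71, so an added change of either sign of more than 1 log2 unit lay within its 95% interval of -1.46 to 1.34. Of the 10 rows called in either cell type, 8 remained after rows in constant ratio were taken once. The 8 still hold both miR-669a-5p and miR-669p-5p, whose looser ratio was not merged.

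miR-467 supplied 4 of the 5 most abundant members, and none of its rows was called. miR-467e-5p measured 302, 398, 416 and 495 in Ago413+/+, 669.7, 553, 658 and 593 in Ago413+/- and 583, 293, 611 and 615 in Ago413-/- spermatocytes. The 4 Ago413+/- libraries lay above the 4 Ago413+/+ ones, at 0.62 ± 0.31 on the log2 scale (edgeR adjusted p = 0.933), and Ago413-/- overlapped both. In the later cell type it measured 195, 278, 514 and 511 in Ago413+/+, 636, 404, 425 and 387 in Ago413+/- and 489, 431, 328 and 495 in Ago413-/- round spermatids. Its Ago413+/+ values spread widely there. miR-467c-5p measured 320.4, 341, 345 and 479 in Ago413+/+, 468, 386, 578 and 298 in Ago413+/- and 317, 73.2, 341 and 423 in Ago413-/- spermatocytes. The later values were 271, 196, 579 and 402 in Ago413+/+, 374, 291, 369 and 302 in Ago413+/- and 246, 217, 168 and 271 in Ago413-/- round spermatids. In both cell types the Ago413-/- and Ago413+/+ values overlapped, and the log2 fold changes were -0.35 ± 0.37 and -0.68 ± 0.37.
miR-467a-3p measured 244, 248, 313 and 533 in Ago413+/+, 367, 340.4, 456 and 298 in Ago413+/- and 476, 139.8, 485 and 466.4 in Ago413-/- spermatocytes. The later values were 224, 295, 355 and 384 in Ago413+/+, 339, 229, 283 and 338 in Ago413+/- and 188, 429, 276 and 230.5 in Ago413-/- round spermatids. Here the Ago413-/- spermatocytes were close together except for the low replicate 2. miR-467a-5p measured 773, 486, 704 and 732 in Ago413+/+, 1135, 679.9, 739 and 631 in Ago413+/- and 796, 696, 913 and 569 in Ago413-/- round spermatids, with Ago413+/- replicate 1 the highest. The last abundant row, miR-467d-5p, measured 71.4, 95.8, 80.6 and 92.02 in Ago413+/+, 77.05, 69.5, 132 and 161 in Ago413+/- and 75.4, 59.9, 66.7 and 81.7 in Ago413-/- spermatocytes. It then measured 89.5, 86.7, 84.6 and 98.3 in Ago413+/+, 107, 71.8, 119 and 68.8 in Ago413+/- and 76.5, 50.1, 68.4 and 68.9 in Ago413-/- round spermatids. These values did not overlap between Ago413+/+ and Ago413-/-, although the change of -0.44 ± 0.29 did not pass (edgeR adjusted p = 0.319). In round spermatids the 7 miR-467 rows ranged from -0.68 to 0.22 with a median of -0.17. No test compared miR-467 with the other numbers.

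A single hairpin gene inside Sfmbt2 was annotated for 22 tested members, which gives the name a position along the cluster. Measured from the first hairpin, Mir669o lies at 47.64 kb and Mir466g at 47.93 kb. Next to them, miR-466h-3p and miR-466h-5p from Mir466h at 48.23 kb had round spermatid log2 fold changes of -1.12 ± 0.55 and -1.14 ± 0.63 that did not pass, on few counts. In spermatocytes these 2 rows had -0.25 and -0.43. On the other side, miR-466n-3p (47.08 kb), also on few counts, had -0.56 in spermatocytes and 0.43 in round spermatids. Toward the other end, miR-669e-5p (0.83 kb) and miR-669l-5p (2.31 kb) had log2 fold changes of -0.02 and 0.39 in spermatocytes and -0.14 and -0.38 in round spermatids. Beside them, miR-669f-3p (0.57 kb) had -0.68 and -0.57. No test compared positions. Rows that share reads with copies elsewhere in the cluster cannot be placed at a single hairpin. By their constant ratios, those among the 22 include miR-297b-3p, miR-297c-3p, miR-466e-3p, miR-466p-3p, miR-467b-5p, miR-467d-3p and miR-669o-3p.

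**Figure D5:**
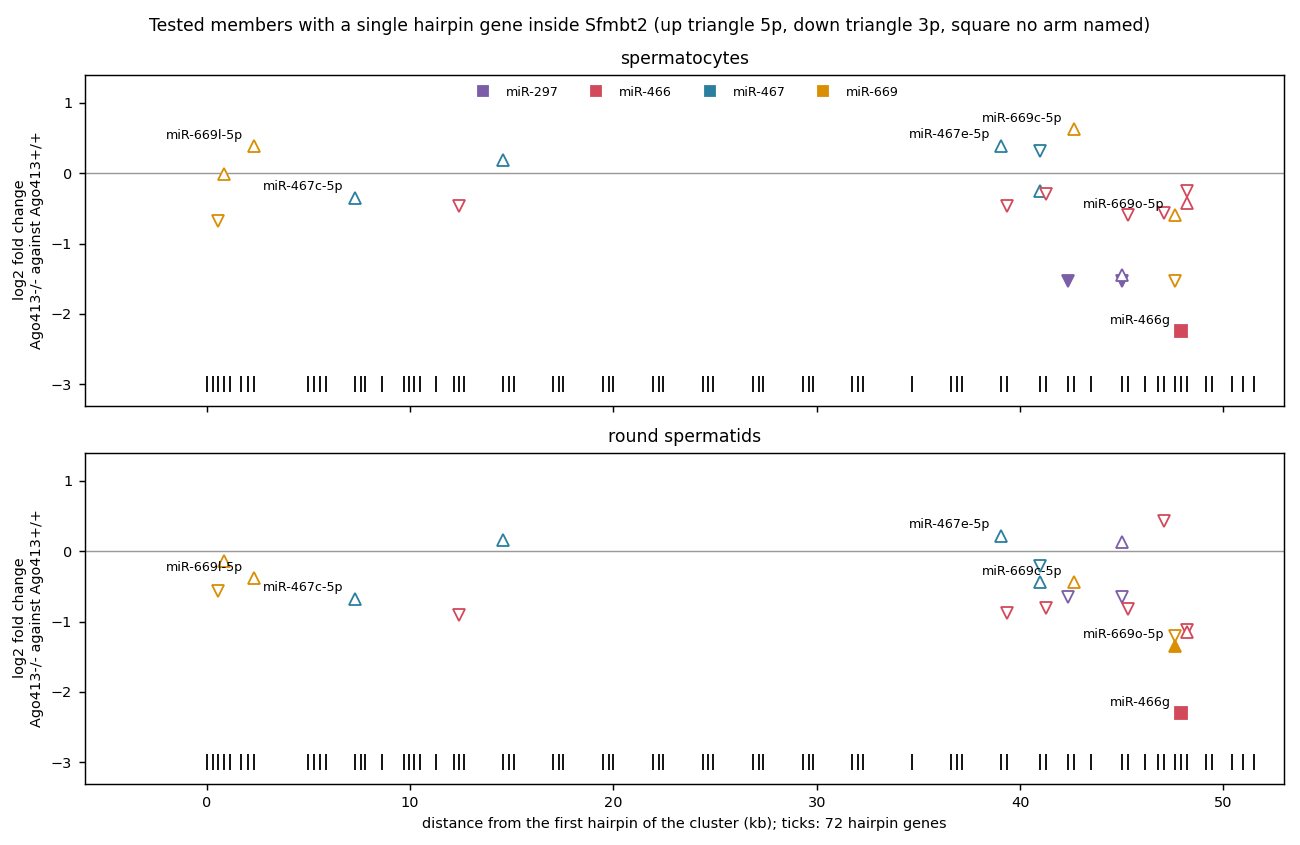
Log2 fold change, Ago413-/- against Ago413+/+ (y axis), of the 22 tested members with a single hairpin gene in Sfmbt2, by distance in kb from the first hairpin (x axis). Ticks are the 72 hairpin genes, filled symbols were called and colours mark the 4 numbers. Rows that share reads with other copies, such as miR-297b-3p, are drawn at the hairpin of their own name. miR-466g, at 47.93 kb, is the lowest point in both panels, near points closer to 0.

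One copy of the deletion was compared with none. In Ago413+/- libraries edgeR called 0 of the 35 members in either cell type, as it called 0% of all 450 miRNAs in each. At an unadjusted p under 0.05 there were 0 members in spermatocytes and 1 in round spermatids (miR-466b-5p, log2 fold change 1.15, adjusted p = 0.591), and DESeq2 called 0 in both. Median log2 fold changes were 0.18 in spermatocytes, where 31 of 35 lay above 0 beside 222 of all 450, and 0.04 in round spermatids. For miR-466g the differences were 0.12 ± 0.44 and -0.36 ± 0.44, with 95% intervals of -0.74 to 0.98 and -1.22 to 0.51, which do not reach the -2.24 and -2.30 seen in Ago413-/-. When Ago413+/- libraries served as the control in place of Ago413+/+, 6 members were called lower in spermatocytes and 4 in round spermatids, beside 7.56% and 5.78% of all 450. miR-466g, miR-669a-3p and miR-669p-5p were in both sets. Of the calls against Ago413+/+, 4 and 3 were made again. The 3p rows of miR-297 lost theirs in spermatocytes (miR-297a-3p -1.39, edgeR adjusted p = 0.0507; miR-297b-3p -1.36, edgeR adjusted p = 0.0524). miR-669a-5p, miR-669o-5p and miR-466i-3p lost theirs in round spermatids, at -1.18, -0.997 and -0.66. This second comparison uses the same Ago413-/- libraries as the first.

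Round spermatids were compared with spermatocytes within each genotype. edgeR called 0 of the 35 members in Ago413+/+, Ago413+/- and Ago413-/-, beside 0%, 0% and 4.89% of all 450. In Ago413+/+ and Ago413+/- 0 members had an unadjusted p under 0.05, and DESeq2 called 0. In Ago413-/- there were 4, and DESeq2 called 1, miR-669l-5p. The 4 were miR-669l-5p (log2 -1.03, adjusted p = 0.0733), miR-466f-3p (-0.91, adjusted p = 0.0899), miR-669c-5p (-1.21, adjusted p = 0.124) and miR-297b-5p (1.31, adjusted p = 0.171). The median over members was -0.06 in Ago413+/+, -0.18 in Ago413+/- and -0.28 in Ago413-/-.

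The share of counts from each arm was followed by number. Rows whose names give no arm, miR-466g among them, were left out. The shares are therefore of the 5p and 3p rows alone. The 5p arm gave 9.04 to 15.8% of miR-466 counts in the 6 group means, 79.9 to 83.3% of miR-467 counts and 78.8 to 92.4% of miR-669 counts. miR-466 counts came mainly from the 3p arm and those of the other pair mainly from the 5p arm. The miR-467 and miR-669 ranges overlapped, and no test compared the numbers. In Ago413-/- against Ago413+/+ round spermatids the 5p share of miR-466 was 15.8 ± 3.3% and 9.19 ± 2.7% (SD, n = 4). That difference had p = 0.0571 in an exact permutation test. In spermatocytes the 5p share of miR-669 was 92.4% in Ago413-/- and 83.6% in Ago413+/+ libraries, a difference of 8.79 percentage points with the same p = 0.0571 in an exact permutation test. Both had an adjusted p of 0.6 over 21 tests, the lowest among them. miR-297 had too few counts in some libraries for this test.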

How the data were processed

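Small RNA from enriched spermatocytes and round spermatids was sequenced in 24 libraries. The authors trimmed adapters with Trim Galore, counted reads against mouse miRBase miRNAs with miRDeep2, and deposited raw counts per mature miRNA; tool versions are not given in the sources used here. Reads that match several names tie rows together, and their counts look divided over the hairpins and rounded, not given in full to each name. For example, miR-467a-5p and miR-467b-5p had 355 and 36 counts in Ago413+/+ spermatocyte replicate 1. In replicate 4 they had 245 and 25, and neither pair is a whole multiple. From those counts, rows in which 3 or more libraries held 10 or more counts were kept and scaled by the trimmed mean of M values, and all 24 libraries were fitted in 6 groups with edgeR 4.0.16 (glmQLFit, glmQLFTest) in R 4.3.3. DESeq2 1.42.0 was an alternative. Intervals are normal 95% intervals from the standard error. Total counts ran from 182904 to 1072637, so 3 counts, the most that a count of 0 allows, are 2.74 to 19.97 normalized CPM. Shares were compared by exact two-sided permutation tests. Replicate pairs differed by 23.5 to 270 times the sampling noise (chi-square per degree of freedom over 36 pairs), so none was 1 library sequenced again. This cannot tell separate pools of mice from repeat preparations of the same pool, since both can exceed sampling noise. On simulated counts (440 rows fitted) the spermatocyte contrast recovered 73.5% of changes of log2 1.5 and 90.4% of log2 2, and the round spermatid one 81.6% and 94.6%. The 12 members with the highest mean level and every called member were named. Members and lists were chosen with earlier results of these data known. Hairpin positions and sequences came from RefSeq GRCm38.p6 and exons from GENCODE on the same build.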

Additional observations from a re-analysis of the deposited data

Results flagged for a closer look

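Of 132 groups of 4 libraries checked (18 members named and 4 shares, each in 6 groups), 7 had 1 library far from the other 3, and chance would give about 6.6, or 1 in 20 groups. In Ago413-/- spermatocytes replicate 2 was low for miR-467e-5p (293 normalized CPM, the others 583 to 615) and for miR-467a-3p (139.8, the others 466.4 to 485). In Ago413+/- libraries, miR-467e-5p was high in round spermatid replicate 1 (636, the others 387 to 425) and miR-466g in spermatocyte replicate 3 (138.7, the others 83.8 to 86.5). In Ago413+/+ libraries, miR-467c-5p was high in spermatocyte replicate 4 (479, the others 320.4 to 345), miR-466f-3p in round spermatid replicate 3 (474, the others 224 to 257) and miR-669a-3p in round spermatid replicate 4 (313, the others 184 to 206). No member passed the test of a difference in genotype effect between the cell types.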

How the results depend on the processing

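Members called in Ago413-/- against Ago413+/+ numbered 7 in spermatocytes and 6 in round spermatids. Both counts stayed within 1.5 times under other scalings (7 and 6, or 7 and 7 with library totals alone, which moved the median of all miRNAs in spermatocytes from -0.04 to -0.25), DESeq2 (7 and 7), identical rows taken once (6 and 6) and a term for early or late library numbers (7 and 5). Without the filter, 6 and 3 were called, beside 3.51% and 2.70% of all called lower. That fit also called 1 member in Ago413-/- round spermatids against spermatocytes (miR-669c-5p). With 10 counts asked of every library, 8 members could be tested and 0 and 1 were called, beside 9.18% and 8.67% of all called lower. In spermatocytes, fitting that cell type alone called 1 and the groups compared alone 0. The share of all miRNAs called lower fell there too, from 8.89% to 3.22% and 2.36%. With constant-ratio rows taken once, chosen after seeing the data as was the Ago413+/- control, 5 and 3 were called. The 5 kept both miR-669a-5p and miR-669p-5p. Of all miRNAs, 8.58% and 7.00% were then called lower. For Ago413-/- round spermatids against spermatocytes, DESeq2 called 1. The cause of these moves was not tested, beyond the fewer rows or libraries that each leaves.

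Leaving out 1 library gave 2 to 7 calls in spermatocytes (3 without Ago413+/+ replicate 3, 2 without Ago413+/+ replicate 4), 1 to 8 in round spermatids (1 without Ago413-/- replicate 3, 2 without Ago413+/+ replicate 4, and 3 without Ago413+/+ replicate 2 or 3 or Ago413-/- replicate 1 or 4) and 0 to 1 for Ago413-/- round spermatids against spermatocytes (1, miR-669l-5p, without Ago413-/- spermatocyte replicate 1). miR-466g kept its call in all 16 of the Ago413-/- fits that left out 1 library. The share of all miRNAs called lower in these fits was 5.78 to 9.82% in spermatocytes and 3.35 to 8.44% in round spermatids. None of the 10 called members changed sign. Of the others named, none of them called, miR-467a-5p in spermatocytes gave -0.046 with library totals alone, -0.043 with 10 counts in every library and -0.038 to 0.33 with 1 library left out. miR-467a-3p in round spermatids gave -0.44 to 0.13 with 1 library left out. With Ago413+/- as the control, miR-467e-5p gave -0.23 in spermatocytes and -0.088 in round spermatids, and miR-467a-5p gave -0.098 in round spermatids.

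With the replicate number as a block, 7 and 4 were called; miR-669a-5p and miR-466i-3p lost their calls in round spermatids. Same-numbered libraries correlated above 0.1 in 7 of 12 spermatocyte and spermatid pairs and 6 of 16 pairs of genotypes, and 4 and 4 correlated best with their own number, so the numbers were not taken as pairing.

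Some differences in 5p share, none past the threshold, changed sign when 1 library was left out. In percentage points they ran, for miR-466, from -0.035 to 2.54 (Ago413-/- against Ago413+/+, spermatocytes), -1.25 to 0.63 (Ago413+/- against Ago413+/+, spermatocytes) and -1.29 to 0.84 (cell types, Ago413+/+, where tested members alone gave 0.33). For miR-467 they ran from -2.57 to 0.30 and -0.31 to 4.33 (Ago413-/- in spermatocytes and round spermatids), -0.81 to 1.76 (Ago413+/-, spermatocytes) and -1.37 to 1.78 (cell types, Ago413+/+). For miR-669 they ran from -7.39 to 0.80 (Ago413+/-, spermatocytes), -3.02 to 1.08 (cell types, Ago413+/+) and -5.61 to 2.58 (cell types, Ago413+/-). Depth limits the lowest rows most, since 1 library had 182904 counts. Ago413-/- spermatocytes were the shallowest group, with a median of 262790.5 counts beside 635807.5 in Ago413+/+ spermatocytes.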
